A study of Arabidopsis thaliana with 11 samples.

Results

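The genes examined here are the chromosomal neighbours of NGA1, NGA2, NGA3 and NGA4, the 4 NGATHA genes of Arabidopsis thaliana, chosen by position and by a minimum signal. They were the probe sets of 1 gene with a locus number in AT2G46500 to AT2G47300 around NGA1 (AT2G46870), AT3G61500 to AT3G62400 around NGA2 (AT3G61970), AT1G01010 to AT1G01500 around NGA3 (AT1G01030) or AT4G01000 to AT4G02000 around NGA4 (AT4G01500). NGA1 to NGA4, AT3G62040, IAA20 and IAA30 were left out, and a log2 value of 4 or more was required on at least 2 of the 11 arrays. Of 150 such probe sets 22 fell short of that signal. The remaining 128, from 126 loci, are the neighbours described below, out of 18741 probe sets on the array that passed the same filter. They divide into 20 in the NGA1 window, 45 in the NGA2 window, 21 in the NGA3 window and 42 in the NGA4 window. These windows hold 353 protein-coding loci in the RefSeq table, so many neighbours were not analysed here.

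RNA came from inflorescences of Ler plants at 30 days, holding flowers no older than stage 12, and was hybridised to Affymetrix ATH1 arrays. The nga quadruple mutant (2 arrays) carries the alleles nga1-1, nga2-1, nga3-1 and nga4-1. The amiR-NGA plants (2 arrays) express from the viral 35S promoter an artificial microRNA against the same 4 genes. The control was 7 arrays labelled wild type, 3 of them with a long-days note, and none of the labels says whether replicates came from separate plantings or how many plants were pooled.

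NGATHA genes encode transcription factors with a B3 DNA-binding domain, which overlap in function and shape the style and stigma at the tip of the carpel. Arabidopsis locus numbers run along each chromosome, mostly in steps of 10, so that a difference in locus number counts neighbours. A mutant allele sits in the chromosome, among the genes beside it, whereas an artificial microRNA acts on transcripts in trans and leaves the chromosome around its targets as it was. Setting the quadruple mutant beside amiR-NGA and wild type therefore asks whether genes next to the mutated loci differ in the mutant alone. What each allele changes in the DNA is not stated in the labels.

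Some arrays stood apart from the others. NGA1 measured 10.50 to 11.003 on wild-type replicates 5 to 7, 5.602 to 5.994 on wild-type replicates 1 to 4, 6.95 and 6.50 on the quadruple mutant arrays and 5.02 and 4.88 on the amiR-NGA arrays, which goes against a single wild-type level. The actin control was higher at its 3-prime than at its 5-prime end by 2.05 to 2.11 on quadruple mutant replicate 1 and wild-type replicates 1 and 2, against 1.09 to 1.31 on the other 8 arrays. Where leaving out such arrays ended the call of a neighbour against wild type, this is said beside it. Of 14 flower identity genes chosen as markers of the labelled tissue, UFO alone had a probe set of 1 gene in the platform annotation. It lay below 4 on every array. The tapetum gene AT5G07230, a marker of young anthers, averaged 11.90, 12.10 and 12.11 in the quadruple mutant, amiR-NGA and wild type.

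Of the NGATHA genes themselves, NGA3 and NGA4 were lower in both genotypes. NGA2 was at 4.68 and 4.77 in the quadruple mutant, at 5.34 and 5.47 in amiR-NGA and at 5.19 to 5.52 in wild type, so that only the mutant arrays lay below every wild-type array (log2 difference -0.62, limma adjusted p = 0.0201 for the mutant against wild type). The test between the genotypes gave an adjusted p of 0.217 for NGA2. Among the loci left out, AT3G62040 was higher in both genotypes (log2 difference 2.01 in the quadruple mutant and 1.48 in amiR-NGA), and IAA20 (0.04 and -0.07) and IAA30 (-0.12 and 0.13) did not pass in either.

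The neighbours past the threshold with the largest differences were AT3G61960 and AT3G61950, beside NGA2, and ARV2 and AT4G01460, beside NGA4. The first 3 of these were lower in the quadruple mutant against both other groups, at 3.20 to 3.70, below the value of 4 that served as the filter, while their amiR-NGA arrays lay inside the wild-type range. AT4G01460 was lower in both genotypes. In all, 8 of the 128 neighbours passed the limma threshold (adjusted p under 0.05 over all 18741 probe sets) between the quadruple mutant and wild type, 1 higher and 7 lower, which is 6.25%. Over all probe sets 4.12% passed, 2.0% higher and 2.12% lower. Near neighbours, within 100 locus numbers of an NGATHA gene, held 5 of the 8. In bulk tissue, fewer cells that express a gene and less RNA per cell cannot be told apart. The values are probe signals, and whether the sequence under the probes is the same in the mutant was not tested.

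**Figure D1:**
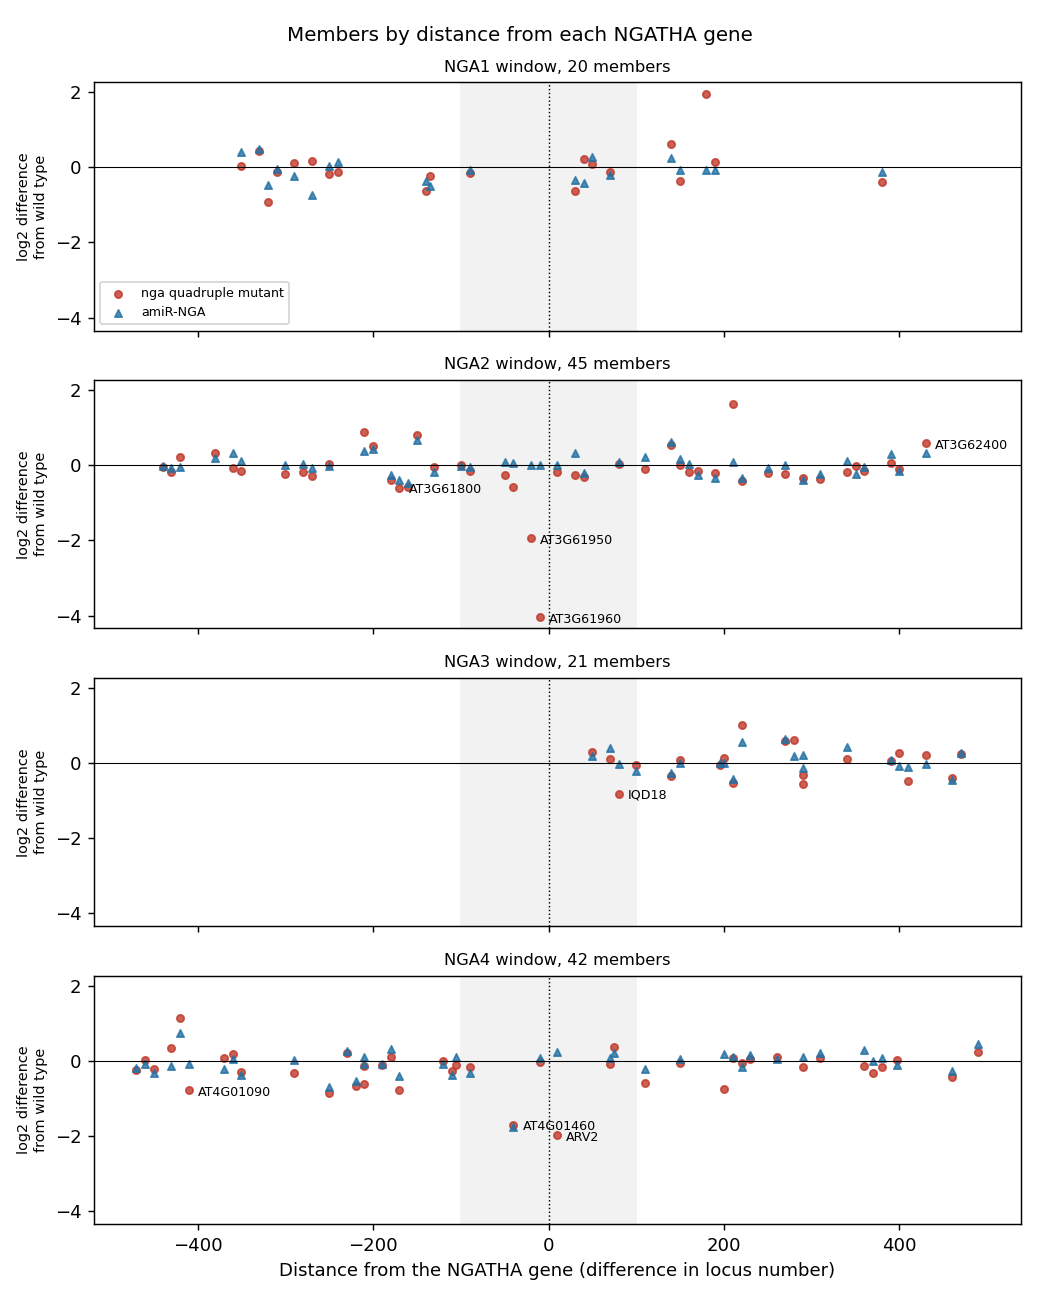
The log2 difference from wild type (vertical axis) of each neighbour, plotted by its distance in locus numbers from the NGATHA gene of its window (horizontal axis, 4 panels), in the quadruple mutant (red circles) and amiR-NGA (blue triangles), with the span of 100 locus numbers on either side in grey. Neighbours past the limma threshold in the quadruple mutant are named. The lowest points, AT3G61960, AT3G61950 and ARV2, lie within 20 locus numbers of NGA2 or NGA4 and have no matching triangle.

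AT3G61960 is the locus numbered 10 below NGA2, with a single protein-coding locus, AT3G61962, annotated between them and not analysed here. It measured 3.70 and 3.34 on the quadruple mutant arrays, 7.62 and 7.52 on the amiR-NGA arrays and 7.25 to 8.09 on the wild-type arrays, with a median of 7.47. Both mutant arrays therefore lay more than 3 units below every other array, and amiR-NGA lay inside the wild-type range. The quadruple mutant averaged 3.52 ± 0.26 (SD, n = 2), amiR-NGA 7.57 ± 0.07 (n = 2) and wild type 7.56 ± 0.28 (n = 7). The difference of the mutant from wild type was -4.04 (SE 0.20, limma adjusted p = 7.55e-07). Since both mutant arrays were under 4, only a bound on the fold of the signal is given. It was at least 11.8-fold lower, from the wild-type mean over the value of 4. The test of the mutant against amiR-NGA gave -4.05 (SE 0.25, adjusted p = 1.19e-05), and amiR-NGA against wild type gave 0.01 (95% interval -0.43 to 0.44).

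AT3G61950, the next locus down, showed the same order of groups at a lower level. It measured 3.67 and 3.20 in the quadruple mutant, 5.45 and 5.32 in amiR-NGA, and 5.11 to 5.62 with a median of 5.43 in wild type. The mutant arrays did not overlap with the others, and amiR-NGA again lay inside the wild-type range. The mutant differed from wild type by -1.94 (SE 0.16, limma adjusted p = 9.5e-05), at least 2.59-fold lower by the same bound, and from amiR-NGA by -1.95 (SE 0.20, adjusted p = 0.00118). In amiR-NGA the difference from wild type was 0.01 (95% interval -0.35 to 0.37).

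Farther along on the same side of NGA2 the signals were dim. AT3G61930, at 40 locus numbers, measured 3.71 and 3.64 in the quadruple mutant, 4.29 and 4.36 in amiR-NGA and 3.90 to 4.95 in wild type. Its mutant arrays were below all others, but the difference of -0.59 (SE 0.23) did not pass (limma adjusted p = 0.166). MTPA1, of the metal tolerance protein family, between AT3G61930 and AT3G61950, lay under 4 on every array and was no neighbour by the rule, with 3.13 and 3.10 in the quadruple mutant, 3.18 and 3.27 in amiR-NGA and 3.25 to 3.45 in wild type. At AT3G61920 the mutant arrays, at 4.01 and 3.91, overlapped with wild type at 3.94 to 4.52. CYP78A9, a cytochrome P450 that promotes fruit and seed growth, measured 4.59 and 4.24 in the quadruple mutant, 4.49 and 4.55 in amiR-NGA and 4.29 to 5.12 in wild type, so its groups overlapped.

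On this side, AT3G61930, AT3G61950 and AT3G61960 each had both quadruple mutant arrays below the 9 other arrays, as NGA2 itself did. At MTPA1 all values were too dim for their order to be read. Counted without a signal filter, MTPA1, these loci and NGA2 made 5 measured loci in a row with both mutant arrays below the other 9. That length rests on MTPA1, whose order could not be read, and it counts NGA2, a mutated gene. Counted the same way, 652 of 13264 loci had both mutant arrays below the others, with 31 runs of 2, 2 of 3 and 1 of 5 or more. A longer run, of 7 loci with both mutant arrays above the other 9, was AT1G23580 to AT1G23670, outside the windows.

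**Figure D2:**
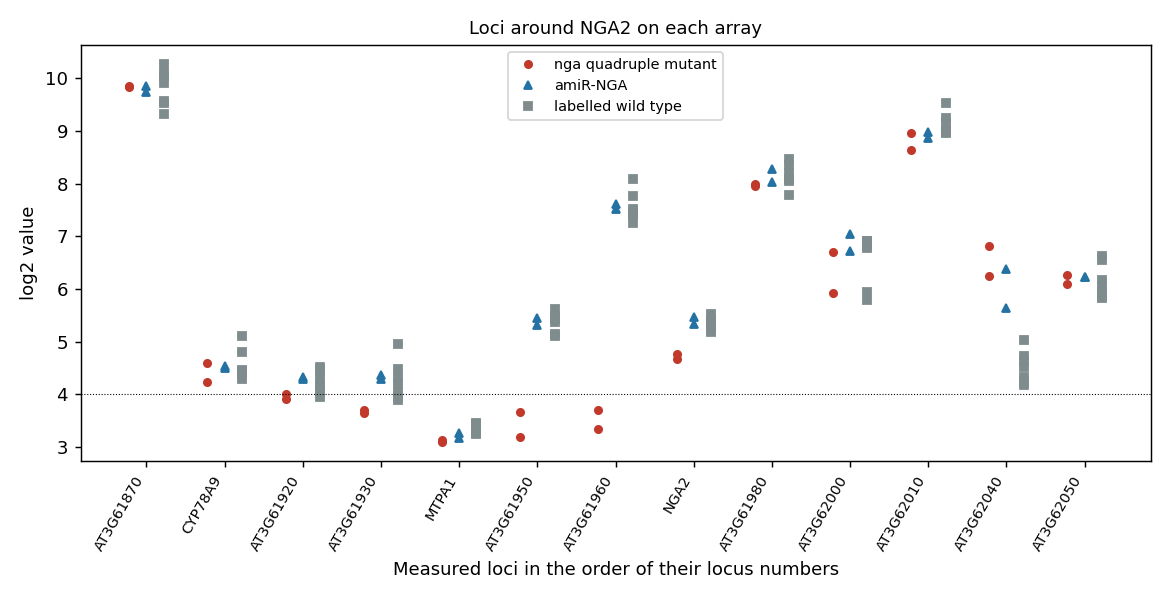
Log2 values on every array (vertical axis) of the measured loci around NGA2 in the order of their locus numbers (horizontal axis), for the quadruple mutant (red circles), amiR-NGA (blue triangles) and arrays labelled wild type (grey squares). The dotted line marks a value of 4. The mutant points of AT3G61950 and AT3G61960 drop below that line while the other 9 arrays stay at 5.11 or above, and from AT3G61980 to AT3G62010 the mutant is near the other groups.

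On the other side of NGA2 no near neighbour passed. AT3G61980, the next measured locus, had 7.96 and 7.99 in the quadruple mutant, 8.04 and 8.27 in amiR-NGA and 7.78 to 8.46 in wild type. The groups overlapped, and the mutant difference was -0.17 with a 95% interval of -0.53 to 0.18 (limma adjusted p = 0.615). AT3G62000 measured 5.93 and 6.70 in the mutant against 5.79 to 6.92 in wild type, which overlap as well. The 4 near neighbours on this side had mutant differences between -0.33 and 0.03.

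Beside NGA4, ARV2 (AT4G01510) is the next protein-coding locus up and encodes a homologue of yeast Arv1, a protein of sterol transport in yeast. It measured 3.34 and 3.30 in the quadruple mutant, 5.62 and 5.48 in amiR-NGA, and 4.89 to 5.65 with a median of 5.40 in wild type. The mutant arrays were more than 1 unit below all others, and amiR-NGA lay in the upper part of the wild-type range. The mutant differed from wild type by -1.98 (SE 0.20, limma adjusted p = 0.000384), at least 2.47-fold lower by the same bound, and from amiR-NGA by -2.23 (SE 0.25, adjusted p = 0.00164). Its paralogue ARV1, in the NGA3 window, was not analysed here.

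Other neighbours close to NGA4, on either side, showed a different picture. AT4G01490, annotated as a pseudogene, had 4.25 and 3.76 in the quadruple mutant, 4.19 and 4.04 in amiR-NGA and 3.74 to 4.43 in wild type, with full overlap. AT4G01570, the second nearest neighbour above NGA4, had 5.56 and 5.58 in the mutant, 5.70 and 5.75 in amiR-NGA and 5.41 to 5.78 in wild type, which overlap too. AT4G01460, at 40 locus numbers, had 5.14 and 5.51 in the mutant, 5.25 and 5.26 in amiR-NGA, and 6.73 to 7.58 with a median of 6.82 in wild type. All 4 arrays of both genotypes were below every wild-type array, and the mutant and amiR-NGA overlapped. The difference from wild type was -1.70 (SE 0.25, limma adjusted p = 0.00446) in the mutant and -1.77 (SE 0.25, adjusted p = 0.00661) in amiR-NGA, comparisons that share the wild-type arrays. Between the genotypes it was 0.07, with a 95% interval of -0.60 to 0.74. Wild-type replicates 1 and 2, which had the high actin difference, gave its highest values, 7.56 and 7.58. Of 4 leaf markers 2 were measured. LHCB4.2 passed and was lower in both genotypes (-0.84 and -1.13), RCA did not pass (-0.39 and -0.69), and their summed log2 levels were 22.9 to 23.1 in the mutant, 22.4 on both amiR-NGA arrays and 23.8 to 24.6 in wild type. Their part in the values of AT4G01460 was not tested. The mutant call ended without quadruple mutant replicate 1, and the amiR-NGA call ended without either amiR-NGA replicate. Each of these fits left 1 array of the genotype. The differences then were -1.51 in the mutant, and -1.76 and -1.77 in amiR-NGA.

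Around NGA1, 0 of 20 neighbours passed in any of the 3 comparisons by limma, and 5 of the 20 had an unadjusted p under 0.05 for the quadruple mutant against wild type, beside 3889 of all 18741 probe sets. AT2G46850, at 20 locus numbers below NGA1, lay under 4 on every array. The nearest neighbour above the signal filter was AT2G46900, with 7.999 and 7.877 in the mutant, 8.24 and 8.21 in amiR-NGA and 8.21 to 9.22 in wild type. Its mutant arrays were the lowest of all, yet the difference of -0.63 (SE 0.21) had a limma adjusted p of 0.116. AT2G46910 measured 8.07 and 7.76 in the mutant, 7.04 and 7.55 in amiR-NGA and 7.28 to 7.97 in wild type. POL, a protein phosphatase of stem cell maintenance in the meristem, averaged 7.17, 7.37 and 7.09 in the mutant, amiR-NGA and wild type. On the side of lower numbers the nearest above the filter were AT2G46780 and AT2G46735, with mutant differences of -0.16 and -0.22. No steady wild-type level of NGA1 itself was available to set beside these values.

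Around NGA3, which lies close to the end of its chromosome, all 21 neighbours had higher locus numbers than NGA3, and the nearest was 50 away. AT1G01080 and AT1G01100, the 2 nearest, had mutant differences of 0.30 and 0.11 and did not pass. IQD18 (AT1G01110), of a family of calmodulin-binding IQ-domain proteins, was the one neighbour that passed there. It measured 5.74 and 5.77 in the quadruple mutant, 6.41 and 6.67 in amiR-NGA, and 6.19 to 6.85 with a median of 6.63 in wild type, so the mutant arrays lay below all others. The difference of the mutant from wild type was -0.81 (SE 0.18, limma adjusted p = 0.0288), a 1.75-fold fall. Against amiR-NGA it was -0.78 (SE 0.22, adjusted p = 0.505), so a difference between the genotypes was not shown. The IQD18 call ended in 9 of 23 alternative settings, among them where a quadruple mutant array or wild-type replicate 3 or 4 was left out, and those lacking wild-type replicates 1 to 4 or the 3 arrays whose actin difference was high (adjusted p up to 0.338). The difference itself stayed between -0.88 and -0.71 in all 23.

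**Figure D3:**
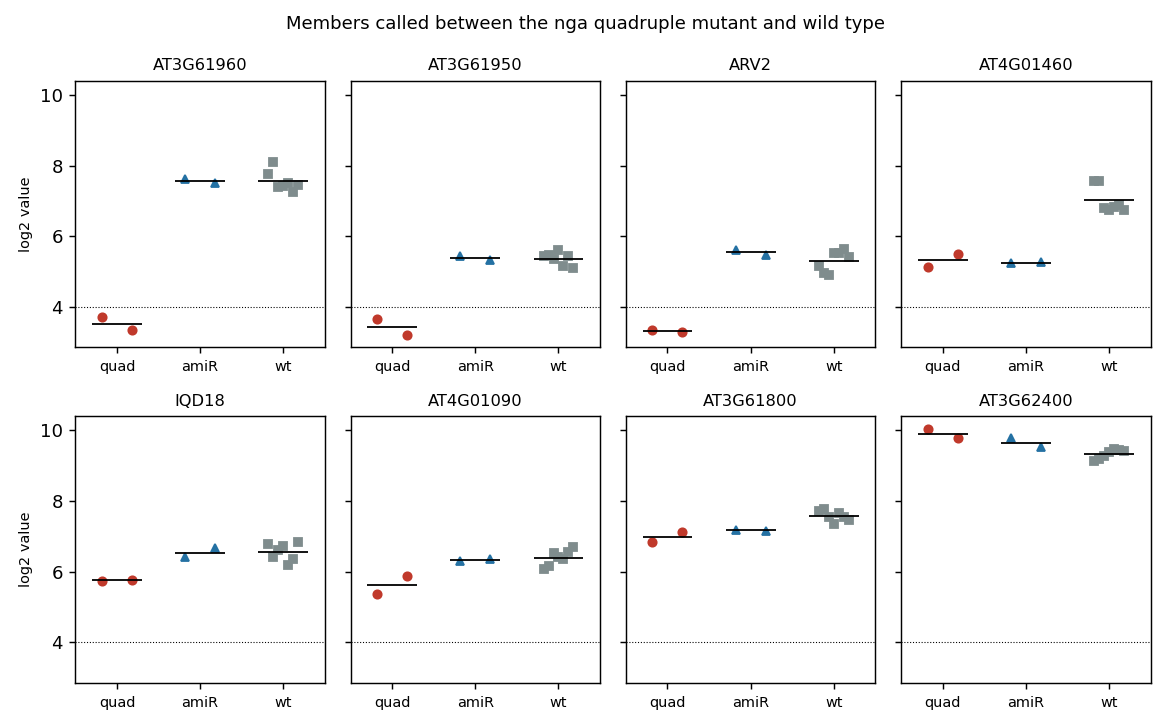
Log2 values on each array (points) and group means (lines) of the 8 neighbours past the limma threshold between the quadruple mutant and wild type, for the quadruple mutant (red circles), amiR-NGA (blue triangles) and arrays labelled wild type (grey squares). The dotted line marks a value of 4. AT3G61960, AT3G61950 and ARV2 are below the line in the mutant alone, AT4G01460 is lower in both genotypes, and the lower row shows smaller differences of 0.81 or less in size.

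The other neighbours past the threshold were more distant, and their calls were less steady. AT4G01090, at 410 locus numbers from NGA4, measured 5.36 and 5.88 in the quadruple mutant, 6.29 and 6.35 in amiR-NGA and 6.07 to 6.71 in wild type (log2 difference of the mutant -0.78, limma adjusted p = 0.0372). AT3G61800, at 170 from NGA2, measured 6.85 and 7.11 in the mutant, 7.19 and 7.16 in amiR-NGA and 7.35 to 7.79 in wild type (-0.60, adjusted p = 0.0346). All arrays of both genotypes were below wild type for AT3G61800. AT3G62400, at 430 from NGA2, was the one rise, with 10.06 and 9.77 in the mutant, 9.79 and 9.52 in amiR-NGA and 9.13 to 9.48 in wild type (0.58, adjusted p = 0.0418). These 3 calls ended in 13, 13 and 15 of 23 alternative settings, including the fits without quadruple mutant replicate 1, those lacking wild-type replicate 3, 5 or 6 or an amiR-NGA replicate, and those with wild-type replicates 1 to 4, wild-type replicates 5 to 7 or the 3 arrays of high actin difference left out (adjusted p up to 0.567, 0.503 and 0.554). The calls of AT4G01090 and AT3G62400 also ended without wild-type replicate 4, and that of AT3G62400 without wild-type replicate 7. The difference of AT3G62400 was 0.37 once the 3 arrays of high actin difference were dropped, and that of AT4G01090 was -0.52 without quadruple mutant replicate 1. By contrast, AT3G61960, AT3G61950 and ARV2 passed against wild type in all 23 settings (adjusted p up to 0.0113, 0.0396 and 0.0396).

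The count of 8 rested partly on single arrays. Without quadruple mutant replicate 1, the replicate with the high actin difference, AT3G61960, AT3G61950 and ARV2 differed from wild type by -4.226, -2.176 and -2.002. The count is not given for that fit, since it left 1 array of the mutant. It was 4 without wild-type replicate 3, 5 without wild-type replicate 4 or an amiR-NGA replicate, and 14 when wild-type replicate 2 was left out. Of all probe sets 1.94%, 2.38%, 3.21% and 5.29% passed in these settings, in the same order. The share was 2.45% without wild-type replicates 5 to 7 and 1.11% without replicates 1 to 4. The count of 8 is thus read beside these shares. The count was 7 and 5 without wild-type replicates 5 to 7 and 1 to 4. Dropping the 3 arrays whose actin difference was high also left 1 array of the mutant, so no count is given for that fit.

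The median absolute difference of the quadruple mutant from wild type was 0.21 for the 25 near neighbours, 0.22 for 48 at more than 100 and up to 250 locus numbers, and 0.22 for 55 beyond that, beside 0.19 over all probe sets. In amiR-NGA these medians were 0.18, 0.19 and 0.16, beside 0.18 over all probe sets. The order of the near and far medians in the mutant depended on single arrays: they were 0.32 and 0.15 without quadruple mutant replicate 1, and 0.21 and 0.31 without replicate 2. The near class had a 90th percentile of the mutant's absolute difference of 1.84, against 0.81 and 0.57 in the middle and far classes and 0.65 over all probe sets. In the mutant 5 of the 25 near neighbours passed, against 1 of 48 middle ones and 2 of 55 far ones. AT3G61960, AT3G61950 and ARV2 carried much of this. Without these 3, taken out because of their values, the near 90th percentile was 0.63 and the near median 0.17. Of the 22 near neighbours then left, 2 passed. Across the 128 neighbours Spearman's rho of distance with the size of the mutant's difference was -0.07, and in the NGA2 window it was -0.23 over 45, as a description of points that share the same arrays.

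**Figure D4:**
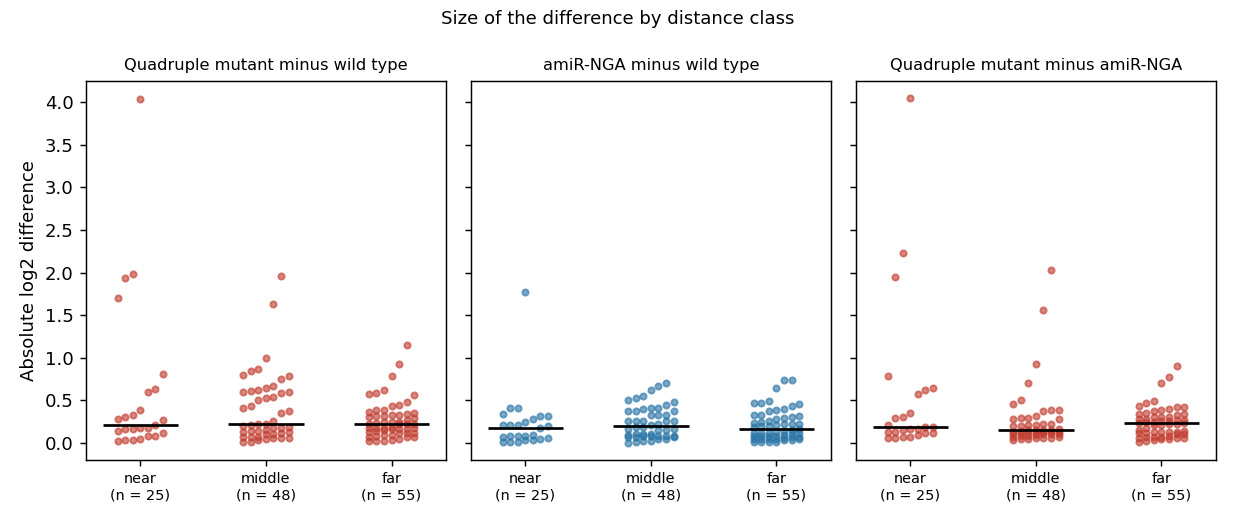
Absolute log2 difference (vertical axis) of each neighbour (points), with the class median (line), for near (up to 100 locus numbers), middle (up to 250) and far neighbours in 3 comparisons. With all arrays the medians of the classes are close to each other, while in the comparison of the quadruple mutant with amiR-NGA 3 near neighbours lie at 1.95 or more, and so does 1 middle neighbour, AT2G47050 (2.03), whose arrays overlap between the groups.

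Counting neighbours whose 2 arrays of a genotype both lay beyond the 9 other arrays gave a comparison with the same layout for both genotypes. In the quadruple mutant 16 of 128 did so, 2 higher and 14 lower, which is 12.5%, against 10.4% of all probe sets (4.50% higher and 5.90% lower). In amiR-NGA 7 of 128 did so, 2 higher and 5 lower, against 8.43% of all probe sets (5.02% higher and 3.41% lower). Within 100 locus numbers the counts were 6 of 25 in the mutant, all lower, and 0 of 25 in amiR-NGA. The 6 were AT3G61960, AT3G61950, AT3G61930, ARV2, IQD18 and AT2G46900. In the middle class they were 6 of 48 and 4 of 48, and in the far class 4 of 55 and 3 of 55. The 2 neighbours that stood higher in the mutant were DL1B, of the dynamin family of membrane-fission proteins, and TBL26, of a family whose studied members acetylate wall polysaccharides. DL1B measured 6.79 and 6.59 in the mutant, 6.49 and 5.88 in amiR-NGA and 5.20 to 6.09 in wild type (limma adjusted p = 0.0529). TBL26 measured 9.77 and 9.40 in the mutant, 9.13 and 9.22 in amiR-NGA and 7.41 to 9.32 in wild type (adjusted p = 0.0898). In amiR-NGA, HTR12, which encodes the histone H3 of centromeres, stood just above the rest, at 7.15 and 7.17 against 6.40 to 7.14 in wild type (adjusted p = 0.361). AT3G62360 stood higher there as well, by 0.30, and AT2G46735, AT4G01390 and AT3G62160 lower, with differences of -0.50, -0.37 and -0.33, none of which passed.

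The direct test of the quadruple mutant against amiR-NGA passed for 3 of 128 neighbours, all lower in the mutant, which is 2.34%. Over all probe sets 0.203% passed, 0.171% higher and 0.0320% lower. The lower calls numbered 6 on the whole array, and 3 of these 6 were AT3G61960, ARV2 and AT3G61950. Of the other lower calls 1 had a single gene, AT1G10110, outside the windows. The 32 higher calls included 0 neighbours. Many of those with a single gene lay on chromosome 1, from AT1G03410 to AT1G65280, outside the NGA3 window. The share of chromosome 1 among all probe sets was not computed. All 3 neighbours kept this call when any single array was left out, without wild-type replicates 1 to 4 or 5 to 7, and once the 3 arrays whose actin difference was high were dropped. In the fit of the 4 arrays of these genotypes alone and with the replicate number as a block, AT3G61960 passed (limma adjusted p = 0.0252 and 0.018). There AT3G61950 (0.264 and 0.101) and ARV2 (0.077 and 0.0506) did not pass, with the same differences. Of all probe sets 0.016% passed in each of these fits, against 0.203% with all arrays.

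Between amiR-NGA and wild type, AT4G01460 was the 1 neighbour that passed, and it was lower. That is 0.781%, against 0.886% of all probe sets (0.112% higher and 0.774% lower). The other 24 near neighbours had amiR-NGA differences between -0.41 and 0.41.

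Of the 21 neighbours with a symbol, IQD18 and ARV2 passed in the quadruple mutant and 0 passed in amiR-NGA. RRP41, a core subunit of the RNA exosome, averaged 7.47, 7.72 and 7.61 in the mutant, amiR-NGA and wild type. HWS, an F-box protein of floral organ growth, averaged 7.19, 7.06 and 6.87. TROL, a thylakoid membrane protein that anchors ferredoxin-NADP reductase, averaged 9.87, 9.75 and 10.08. WRKY22, a transcription factor of defence signalling, averaged 4.82, 4.97 and 5.67, with a mutant difference of -0.85 (limma adjusted p = 0.125).

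Lists of genes by role covered the windows thinly. The clock and light list and the auxin list each had 0 of 6 entries with a probe set of 1 gene in the platform annotation. That annotation lists no gene for 8730 probe sets, so a gene without an entry may still be on the array. The list of abscisic acid and stress genes had 2 of 11 measured, WRKY22 and WRKY47, and the pollen list 1 of 8, PIPK11. The organ growth list had 3 of 5 measured. These were CYP78A9, POL and UPB1, which lay under 4 on every array and was no neighbour by the rule. None of the 5 neighbours on these lists passed in any comparison. Of 18 pairs of related genes, each split between the NGA1 and NGA2 windows or the NGA3 and NGA4 windows, 0 had both genes among the neighbours.

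The quadruple mutant and wild-type means differed at least 2-fold for 8 neighbours, of which 4 passed and 4 did not. That is 6.25% of the neighbours, against 4.24% of all probe sets. Those that did not pass were TBL26, AT1G01250, AT2G47050 and AT3G62180, all but TBL26 named here after their values were seen. AT2G47050 had 11.70 and 9.83 in the mutant, 9.98 and 7.47 in amiR-NGA and 7.47 to 9.99 in wild type. AT3G62180 had 9.11 and 7.35 in the mutant, 7.52 and 5.83 in amiR-NGA and 5.22 to 7.96 in wild type. In both, quadruple mutant replicate 1 was the highest array and replicate 2 lay inside the wild-type range, so the spread between replicates was as large as the difference (limma adjusted p = 0.158 and 0.203). Of the 3 tapetum and pollen markers measured, AT5G07230 was at 11.59 on quadruple mutant replicate 1 and 12.22 on replicate 2, the tapetum regulator AMS at 5.95 and 6.91, and AT5G10130 at 4.69 and 4.57. The first 2 were thus lower on replicate 1, and AT5G10130 was higher there. The list had 6 entries, and the summed log2 levels of the measured ones were 22.2 to 23.7 in the mutant, 23.3 to 23.4 in amiR-NGA and 22.9 to 24.3 in wild type. Their part in these values was not tested.

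For the 2 loci with several probe sets, AT1G01320 and AT4G01290, the sets did not match closely. The mutant differences from wild type were -0.31 and -0.56 for AT1G01320 and -0.14 and -0.60 for AT4G01290, and none passed.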

How the data were processed

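The authors' deposited values are log2 expression values per probe set, made with GC-RMA, a method that subtracts a sequence-based background, normalizes between arrays and summarises probes. The submitters' processing notes name GCRMA and R 2.7.2 and no further settings. The values ran from 2.61 to 14.37, with array medians of 6.08 to 6.27. Precision is limited by the number of arrays.

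Of 22810 rows, 64 controls were left out, and 18741 probe sets with a value of at least 4 on at least 2 arrays were kept. Names came from the platform annotation (13513 probe sets of 1 gene, 503 of several, 8730 not listed) and, for 13436, from RefSeq (TAIR10.1), used for names and gene order only. All 128 neighbours matched RefSeq. 5 of them reached 4 on only 2 or 3 arrays.

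Differences were tested with limma 3.58.1 (lmFit, eBayes, R 4.3.3) in 1 fit of 3 groups over 11 arrays, two-sided, with Benjamini-Hochberg adjustment over all 18741 probe sets and a threshold of 0.05. SE and 95% intervals are moderated and unadjusted. Since no label says that replicates were grown separately, p-values reflect the spread between arrays alone, and that spread may be technical. The fit was tested on simulated data.

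Neighbours named are the 2 nearest on each side, those past the threshold, those whose 2 arrays of a genotype lay beyond the other 9 (the 10 with the largest differences for the mutant and the 5 for amiR-NGA), and list members. Others are said to be chosen after their values were seen, or are given as examples. The members, lists and rules were chosen with earlier results of these data known. Alternatives covered the filter, scaling, eBayes settings, array weights, arrays in the fit, a replicate block, the long-days note, probe sets per locus, the measure of distance, and leaving out arrays.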

Additional observations from a re-analysis of the deposited data

Results flagged for a closer look

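For 3 neighbours the quadruple mutant differed from amiR-NGA by the test of that difference itself, with log2 differences of -4.05 for AT3G61960, -2.23 for ARV2 and -1.95 for AT3G61950 (limma adjusted p = 1.19e-05, 0.00164 and 0.00118). In all 3 both mutant arrays were below the other 9. DL1B had 1 wild-type array far from the others, replicate 4 at 5.20, with a gap to the next array of 0.632 of the group's range. It was the 1 such neighbour of 33 examined, and chance flags about 1 in 20.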

How the results depend on the processing

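AT3G61960, AT3G61950 and ARV2 passed against wild type under all 23 alternatives, and 0 of the named calls changed direction under any. The 8 calls of the quadruple mutant against wild type numbered 5 with only the arrays of both groups and 5 with the replicate block. They numbered 4 with a covariate for the long-days note and 5 without wild-type replicates 1 to 4. Of all probe sets 3.21%, 1.35%, 1.37% and 1.11% passed in these 4 settings, against 4.12% as reported. Without single wild-type arrays there were 4 to 14 calls, beside 1.94% to 5.29% of all probe sets. The 1 call of amiR-NGA against wild type became 7 with array weights, 3 with the replicate block and 2 lacking the 3 arrays whose actin difference was high. Of all probe sets 8.69%, 4.41% and 2.24% passed there, against 0.886% with all arrays. The call stayed without any single wild-type array, beside 0.422% to 1.08% of all probe sets. It ended where only 1 amiR-NGA array was left, with differences of -1.76 and -1.77 for AT4G01460. The 3 calls between the genotypes became 1 with only their own arrays and 1 with the replicate block. Of all probe sets 0.016% passed in each of these settings, against 0.203% as reported. The calls stayed at 3 without any single wild-type array, beside 0.171% to 0.219% of all probe sets. Neighbours with both mutant arrays beyond the others, 16, became 28 without wild-type replicates 5 to 7 and 25 without replicates 1 to 4. Of all probe sets 13.8% and 20.7% did so there, against 10.4% with all arrays. The count was 16 to 22 without single arrays, when 10.6% to 13.9% of all probe sets did so. For amiR-NGA, 7 became 4 with median centring, 17 without wild-type replicates 1 to 4 and 11 lacking the 3 arrays whose actin difference was high. Of all probe sets 8.32%, 14.3% and 15% did so there, against 8.43% with all arrays. Without single arrays 7 to 11 neighbours did so, beside 8.87% to 11.3% of all probe sets. These counts had no value where 1 array of the genotype was left, as for the mutant once the arrays with a high actin difference were dropped. The median absolute difference without single arrays ran from 0.19 to 0.32 (near) and 0.15 to 0.31 (far) in the mutant, and from 0.12 to 0.23 and 0.15 to 0.22 in amiR-NGA. For amiR-NGA it was 0.25 near and 0.21 far without wild-type replicates 5 to 7, and 0.15 near lacking the 3 arrays whose actin difference was high. The cause was not tested, except that fewer arrays leave fewer residual degrees of freedom. A lone array left in a genotype is assumed to vary like the others. Replicate numbers 1 and 2 recur in all groups, but nothing says that they pair the arrays. Deviations of same-numbered arrays from their group means correlated at -0.28 to 0.29. In a group of 2 arrays these deviations mirror each other, so the correlations are not independent and do not decide whether arrays are paired. The block compares with wild-type replicates 1 and 2 alone.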
